A study of Mus musculus with 20 samples.

Results

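The genes examined here were those of the chemokines and of a set of cytokines that includes interleukin 11 (Il11), followed through an epithelial-mesenchymal transition (EMT) model of the mouse mammary gland. They were taken by name from the expression table: protein-coding genes with a Ccl or Cxcl symbol, the chemokines Cx3cl1, Ppbp and Pf4, and the cytokines Il1a, Il1b, Il1rn, Il6, Il11, Il15, Il18, Il23a, Il33, Il34, Lif, Csf1, Csf2, Csf3, Tnf and Tslp. This gave 62 of the 54986 genes in the table, with 56 different names. Of these, 31 were CC chemokines, 14 were CXC chemokines, 1 was the CX3C chemokine and 16 were other cytokines. Only 22 genes reached 1 count per 1e6 reads (CPM) in at least 2 of the 20 libraries and were tested, 6 of them CC, 6 CXC, 1 CX3C and 9 other cytokines. A gene that is high in only 1 condition can pass this filter through that condition alone, so the 22 do not stand for all 62.

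All cells derived from NMuMG, an epithelial line from the normal mouse mammary gland, grown in serum-containing medium and sequenced as bulk RNA in 2 libraries per group. The NMuMG group was the unmodified line and the TGFb group the same cells after 4 days of TGFβ. E1KD cells carried an shRNA against Pcbp1, the gene of the RNA-binding protein hnRNP E1, which the study silences to induce EMT in this line. M1P cells were recovered from primary tumors that E1KD cells had formed in the mammary fat pad of NOD/SCID mice, which lack mature B and T cells but keep myeloid cells, and L1P cells were recovered from lung metastases. M1P and L1P carried the same Pcbp1 shRNA and a puromycin resistance gene for selection in culture, and each is a single recovered line. The Empty_vector group held NMuMG cells with an empty expression vector, and Platr18_cl12 and Platr18_cl16 were single clones of NMuMG that overexpressed the long noncoding RNA Platr18 (Lncenc1 in the table). E1KD_SCR and E1KD_Platr18KD both carried the Pcbp1 shRNA, together with a scrambled shRNA in the first and an shRNA against Platr18 in the second. The labels do not say that the 2 libraries of a group came from separate cultures, so every p-value measures the spread between these libraries, which may be technical.

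Chemokines are small secreted proteins that guide leukocytes along gradients and act through G protein-coupled receptors. CC chemokines such as Ccl2 and Ccl7 attract mainly monocytes, whereas the CXC chemokines Cxcl1, Cxcl5 and Ppbp attract neutrophils through the receptor Cxcr2. Il11 and Lif belong to the interleukin 6 family, whose members bind a receptor of their own together with the shared subunit gp130 (Il6st) and activate the transcription factor STAT3. Il11 is a well-known TGFβ-induced gene in epithelial and stromal cells, and mammary epithelial cells are also known sources of Csf1 and of the nuclear alarmin Il33.

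The silenced and overexpressed genes were read first. Pcbp1 had 287 and 312 CPM in NMuMG against 16.6 and 14.2 CPM in E1KD, and 32.3 CPM in both Empty_vector libraries against 3.28 and 3.46 CPM in E1KD_SCR. Lncenc1 had 3092 and 3096 CPM in clone 12, 813 and 820 CPM in clone 16, and 3.06 to 3.68 CPM in Empty_vector. It had 0.136 and 0.170 CPM in E1KD_Platr18KD against 2.92 and 3.10 CPM in E1KD_SCR, which was not above Empty_vector. By contrast, it had 17.9 and 14.6 CPM in E1KD against 1.24 and 1.45 CPM in NMuMG. TGFb had 2.40 and 2.70 CPM of it, M1P 25.7 and 26.2 CPM and L1P 76.9 and 73.3 CPM. The libraries were of 2 kinds. The 10 libraries of NMuMG, TGFb, E1KD, M1P and L1P held 333 to 492 CPM of the mitochondrial ribosomal RNA mt-Rnr2, and the other 10 held 113874 to 165149 CPM, so levels were compared only within a kind. Each library was scaled to 50.8 to 147 M reads (M, 1e6), which makes 3 reads worth 0.0204 to 0.0591 CPM. E1KD replicate 1 stood apart: its values were higher than those of replicate 2 by a median of 0.29 on the log2 scale, against at most 0.07 in size for any other pair. Of 6 epithelial markers, 4 were at 1 CPM or more in every group, with summed levels of 1734 to 4421 CPM. None of the 4 tested ones was called lower in E1KD than in NMuMG, where their median log2 fold change was 0.12, and Krt19, a keratin of simple epithelia, had 607 and 434 CPM in E1KD against 475 and 495 CPM in NMuMG. After TGFβ it had 16.7 and 19.6 CPM, and it was the only 1 of the 4 called lower there. The 9 immune markers summed to 1.57 to 7.14 CPM, the 5 endothelial markers to at most 0.541 CPM and the 5 stromal markers to at most 13.1 CPM, the last in TGFb.

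Promoter windows of 250 bases before to 50 bases after the start were read for the tested genes from RefSeq (GRCm38.p6), and 16 of the 22 had an entry, with 23 windows in all. These were searched on both strands for the AP-1 motif, taken loosely as TGANTCA with any base at N. They were also searched for the NF-kB motif, taken as GGGA and CC with any 4 bases between. An AP-1 match was present in 7 of the 23 windows (30.4%) and in 7.81% of all 32851 windows. An NF-kB match was present in 10 of the 23 (43.5%) and in 20.7% of all windows. Windows of a gene can overlap, and those of Ccl27a that do so hold the same NF-kB site. By gene, 7 of the 16 held an AP-1 match and 8 an NF-kB match, and the shares of all genes were not computed. Il33, Il11 and Ppbp were called in more comparisons than the other genes. Neither of the Il33 windows held a match, whereas 1 of the Il11 windows and the Ppbp window held an AP-1 match, which is shown in capitals.
Il11, chr7:4778092-4778391, minus strand: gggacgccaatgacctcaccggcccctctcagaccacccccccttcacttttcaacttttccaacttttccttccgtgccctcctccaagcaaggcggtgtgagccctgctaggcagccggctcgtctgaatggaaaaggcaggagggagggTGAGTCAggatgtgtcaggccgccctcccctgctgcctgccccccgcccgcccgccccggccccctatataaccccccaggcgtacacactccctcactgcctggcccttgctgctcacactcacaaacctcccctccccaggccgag
Ppbp, chr5:90768268-90768567, plus strand: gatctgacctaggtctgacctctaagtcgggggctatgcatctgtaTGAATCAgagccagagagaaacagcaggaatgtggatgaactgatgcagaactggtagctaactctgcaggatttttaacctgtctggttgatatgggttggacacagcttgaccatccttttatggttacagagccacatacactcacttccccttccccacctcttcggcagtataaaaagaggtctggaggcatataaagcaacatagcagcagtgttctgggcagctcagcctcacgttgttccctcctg
The AP-1 match of Il11 begins 98 bases before this start and that of Ppbp 204 bases before. A second Il11 window, at a start farther upstream, held no match. Shorter stretches show 1 match each of 6 other genes described here, 10 bases to each side, with the AP-1 match of Ccl9, Il1rn and Lif and an NF-kB match of Ccl20, Csf1 and Cxcl1 in capitals. They are a selection, made after the expression values had been seen.
Ccl9, chr11:83578673-83578699, minus strand: ttactctctcTGAATCAatttgaactt
Il1rn, chr2:24336709-24336735, plus strand: tctgctagacTGAGTCAcgcctctgga
Lif, chr11:4257330-4257356, plus strand: cagtcagctgTGACTCAggccatagtg
Ccl20, chr1:83116675-83116704, plus strand: taatcaatggGGGAAAACCCcgggtgagaa
Csf1, chr3:107760605-107760634, minus strand: cgggccttgaGGGAAAGTCCctaggggcca
Cxcl1, chr5:90891164-90891193, plus strand: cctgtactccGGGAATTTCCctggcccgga
At the open base of TGANTCA, the matches of Ppbp and Ccl9 have A, and those of Il11, Il1rn and Lif have C or G. The NF-kB matches of Csf1 and Cxcl1 shown overlap a second match that is shifted by 1 base, and both windows held a further match. Not shown are the NF-kB matches of Il1rn, Lif, Csf2, Cxcl10 and Ccl27a and the AP-1 matches of Cxcl10 and Ccl27a. These are matches of letters in a window and say nothing of a factor being bound.

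Across the comparisons, 16 of the 22 tested genes were called at least once, which required p under 0.001 before adjustment and a change of 1 or more in size on the log2 scale, in limma. In single comparisons 1.21% to 23.3% of all tested genes were called, and the share of them called at least once was not computed. Fold changes are those of log2(CPM + 1) and understate the change of genes near or below 1 CPM. Il33 was called in 7 of the 9 comparisons, Il11 and Ppbp in 5, and Csf1, Ccl9, Cxcl17 and Cxcl1 in 4.

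**Figure D1:**
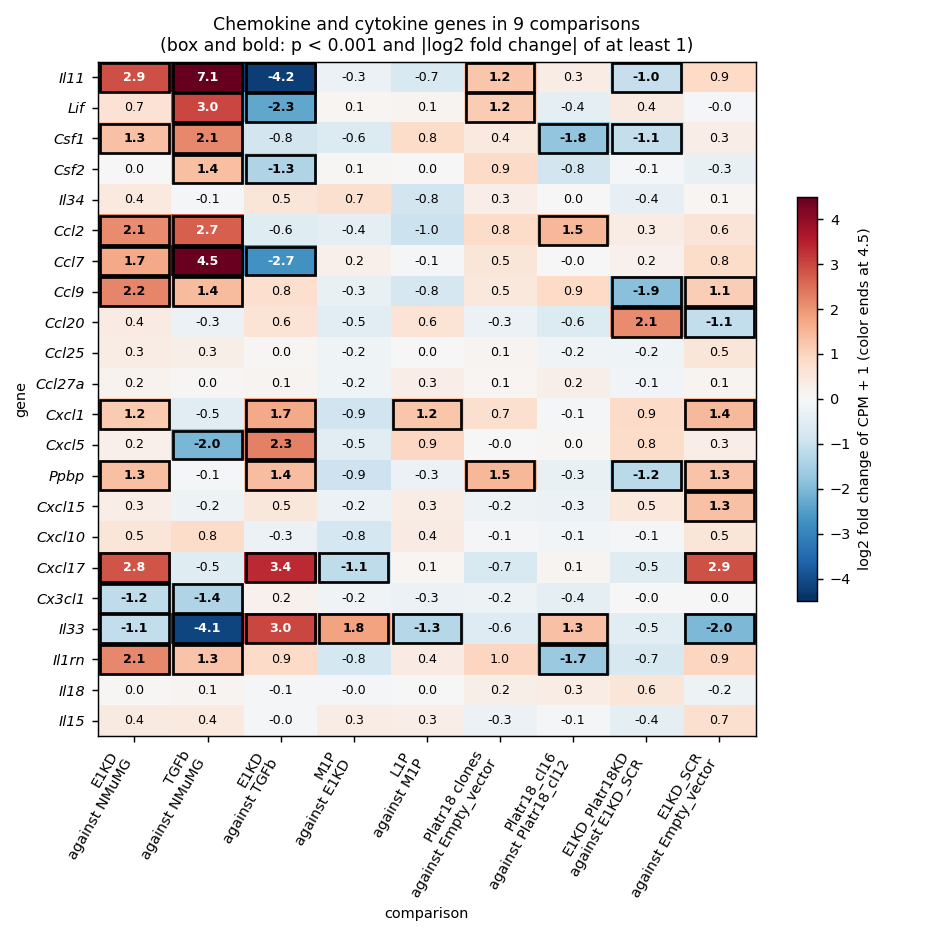
Log2 fold change of CPM + 1 for the 22 tested genes (rows, ordered by role) in 9 comparisons (columns). Red is higher and blue lower in the first-named group, and boxes with bold numbers mark called genes. Il11 rose by 7.12 after TGFβ, beyond the color scale, and Il33 fell by 4.12.

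The E1KD line asked what loss of hnRNP E1 does to these genes. Il11, Cxcl17, Ccl9, Il1rn, Ccl2, Ccl7, Ppbp, Csf1 and Cxcl1 rose in E1KD against NMuMG, and Cx3cl1 and Il33 fell. Thus 11 of the 22 were called, while 9.44% of the 17106 genes tested were. Their median log2 fold change was 0.49, and that of all tested genes was 0.17. Between E1KD and TGFb and between M1P and E1KD the medians of all genes were 0.26 and -0.17. The part of the higher values of E1KD replicate 1 in these medians was not tested. After rescaling by median-of-ratios factors 10 were called in E1KD, 8 higher and 2 lower. When the fit held the E1KD and NMuMG libraries alone, Il11, Cxcl17, Ccl9, Ccl7 and Csf1 were called and the other 6 were not. In such fits Il1rn also lost its call after TGFβ, and Ppbp and Cxcl1 lost theirs in E1KD against TGFb.

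TGFβ treatment of NMuMG raised Il11, Ccl7, Lif, Ccl2, Csf1, Ccl9, Csf2 and Il1rn and lowered Il33, Cxcl5 and Cx3cl1. Again 11 of the 22 were called, against 13.5% of all genes, and the median was 0.21 in these genes and -0.077 in all. Both comparisons share the NMuMG libraries, so the groups were also set against each other directly. E1KD was higher than TGFb in Cxcl17, Il33, Cxcl5, Cxcl1 and Ppbp and lower in Il11, Ccl7, Lif and Csf2. These 9 stand beside 23.3% of all genes called in the same direct comparison. All CXC genes called there were higher in E1KD, and both interleukin 6 family genes were higher in TGFb.

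In the tumor lines few of these genes were called. Il33 was higher and Cxcl17 lower in M1P than in E1KD, 2 genes against 3.59% of all genes. Cxcl1 was higher and Il33 lower in L1P than in M1P, again 2 genes, against 1.21% of all genes. The M1P count was 1 without E1KD replicate 1 and after either rescaling, where only the rise of Il33 was called, and 4 without E1KD replicate 2. Over all genes 3.32% were called without replicate 1 and 11.8% without replicate 2. After median-of-ratios rescaling the L1P count was 3, 1 higher and 2 lower.

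Platr18 overexpression raised Ppbp, Il11 and Lif in the mean of the clones against Empty_vector, while 1.46% of all genes were called. The clones differed from each other in Ccl2 and Il33, higher in clone 16, and in Csf1 and Il1rn, higher in clone 12, against 4.38% of all genes. Silencing of Platr18 in E1KD cells raised Ccl20 and lowered Ccl9, Ppbp, Csf1 and Il11, against 1.48% of all genes. E1KD_SCR differed from Empty_vector in 7 genes, with Cxcl17, Cxcl1, Cxcl15, Ppbp and Ccl9 higher and Il33 and Ccl20 lower, against 5.98% of all genes. A test of the difference between the effects of hnRNP E1 silencing in the 2 kinds of library called 8 of the 22 genes, against 3.51% of all.

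Among the ligands of gp130, Il11 had 0.124 and 0.170 CPM in untreated NMuMG, worth 7 and 9 reads. After TGFβ it had 152 and 164 CPM, and in E1KD it had 8.46 and 6.62 CPM. NMuMG was thus near the detection limit, TGFb was far above E1KD, and these 3 groups did not overlap. The log2 fold change was 7.12 after TGFβ (standard error 0.109, adjusted p = 2.1e-15) and 2.89 in E1KD (standard error 0.109, adjusted p = 2.2e-11). The ratios of mean CPM behind these values were 1077 and 51.4, and both rest on the few reads in NMuMG. The direct log2 fold change of E1KD against TGFb was -4.23 (adjusted p = 2.2e-13).

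The tumor lines kept Il11 well above NMuMG, with 5.86 and 6.13 CPM in M1P, and L1P had 3.45 and 3.36 CPM. L1P lay below M1P by 0.67 on the log2 scale (adjusted p = 0.000609), which did not reach the limit on the fold change, although the libraries did not overlap. In the other kind of library Il11 had 0.205 and 0.130 CPM in Empty_vector, 1.37 and 1.63 CPM in clone 12 and 1.80 and 2.44 CPM in clone 16. Both clones were above the vector control, by 1.09 and 1.41 on the log2 scale, and the mean of the clones was 10.8 times the control by CPM (log2 fold change 1.25, adjusted p = 2.7e-07). The E1KD_SCR libraries held 1.15 and 1.16 CPM and those of E1KD_Platr18KD 0.0339 and 0.0749 CPM, worth 5 and 11 reads. That was 21.2 times lower by mean CPM (log2 fold change -1.03, adjusted p = 1.1e-05), and the groups did not overlap. The log2 value lies at the limit of the call because both groups are near or under the pseudocount of 1 CPM. With a pseudocount of 0.1 it was -3.04, and with rescaling to equal sums it was -0.93 and no longer called.

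Lif, the leukemia inhibitory factor, was present throughout. It had 23.2 and 21.1 CPM in untreated NMuMG, 179 and 186 CPM in TGFb and 38.0 and 32.7 CPM in E1KD, so TGFβ raised it by 2.99 on the log2 scale (standard error 0.0777, adjusted p = 3.1e-13). The difference of 0.65 in E1KD (adjusted p = 7.3e-06) stayed under the fold limit. M1P had 37.8 and 36.7 CPM and L1P 39.6 and 41.3 CPM, close to E1KD. With Platr18, Lif had 47.3 and 51.9 CPM in clone 12 and 35.4 and 37.0 CPM in clone 16, against 18.3 and 18.5 CPM in Empty_vector (log2 fold change of the clone mean 1.16, adjusted p = 1.6e-08). In E1KD_SCR it had 17.5 and 18.3 CPM, and in E1KD_Platr18KD 23.2 and 24.5 CPM. Unlike Il11, Lif was thus not lower after Platr18 silencing, where its log2 fold change was 0.39 (adjusted p = 0.00239).

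**Figure D2:**
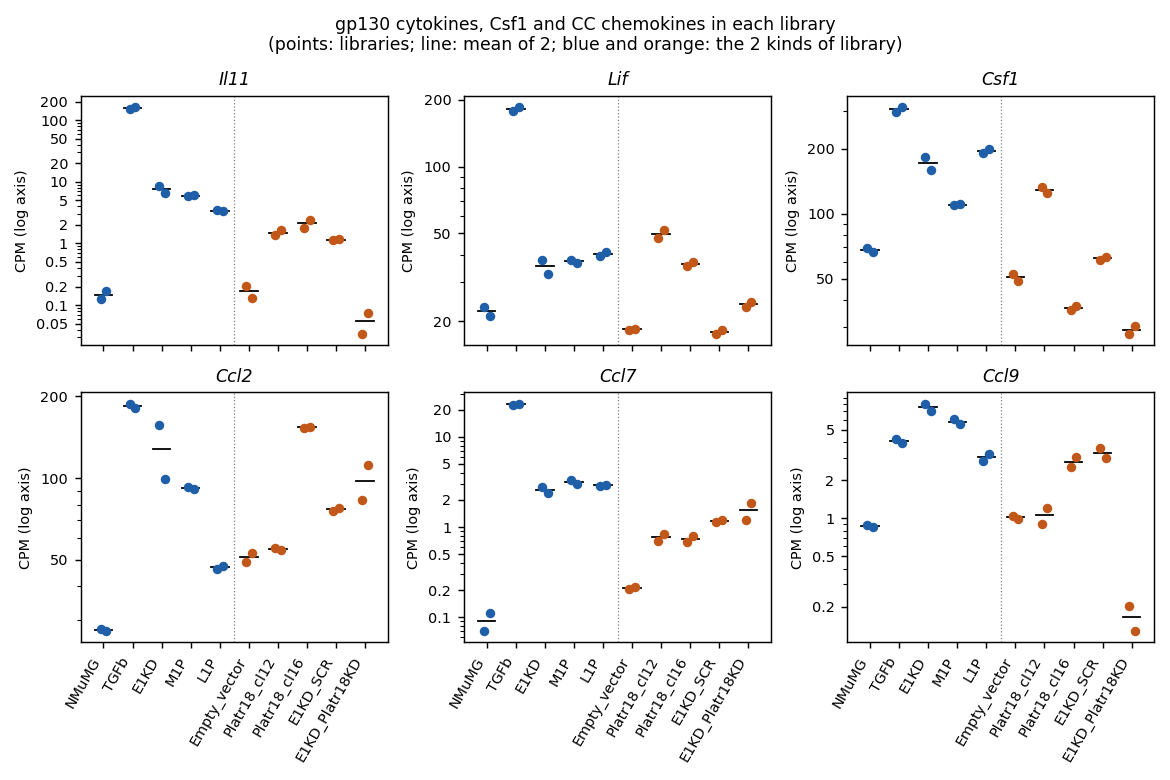
CPM on a log axis for Il11, Lif, Csf1, Ccl2, Ccl7 and Ccl9 in each of the 20 libraries, with the mean of each pair as a line and a dotted line between the 2 kinds of library. Il11 spans 0.0339 to 164 CPM, and the TGFb libraries are the highest of their kind for Il11, Lif, Csf1, Ccl2 and Ccl7 but not for Ccl9.

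Other genes of the gp130 pathway were read from a list. Of 7 further gp130 ligands 2 were tested and neither was called in any comparison. Of 10 genes of gp130 and STAT3 signalling, all tested, 2 rose after TGFβ: Pim1, a STAT3-induced kinase, by 2.88 (adjusted p = 8.6e-12) and Stat3 by 1.65 (adjusted p = 4.2e-09), beside 13.5% of all genes called. None of the 10 was called in E1KD against NMuMG, beside 9.44% of all genes. In E1KD against TGFb 1 was higher and 3 were lower, beside 23.3% of all genes called. Socs3, the feedback inhibitor of this pathway, was the higher one (1.33, adjusted p = 6.1e-09), and Pim1 (-2.73), the kinase Jak2 (-1.13) and Stat3 (-1.11) were lower. The receptor Lifr was listed at 0 in both libraries of NMuMG, TGFb, M1P and L1P, and had 3.66 and 2.40 CPM in E1KD. In the other kind it had 2.23 and 2.14 CPM in E1KD_SCR and at most 0.0477 CPM elsewhere, E1KD_Platr18KD included. The Lifr differences were called in E1KD against NMuMG (1.99, adjusted p = 3.3e-10), in M1P against E1KD (-1.99), in E1KD_SCR against Empty_vector (1.66) and in E1KD_Platr18KD against E1KD_SCR (-1.63, adjusted p = 2.5e-08). The receptor for Il11, Il11ra1, had 1.64 to 4.26 CPM, which is uncertain because its near-identical copy and the overlapping Ccl27a could share its reads. The shared subunit Il6st had 34.7 to 99.3 CPM.

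The colony-stimulating factors moved in several comparisons. Csf1, the main growth factor of macrophages, had 69.5 and 66.7 CPM in untreated NMuMG, 297 and 313 CPM in TGFb, and 183 and 160 CPM in E1KD. M1P followed with 110 and 111 CPM, and L1P with 192 and 199 CPM. It rose by 2.15 after TGFβ (standard error 0.0733, adjusted p = 6.6e-12) and by 1.31 in E1KD (adjusted p = 1.9e-09). The clones went apart: Csf1 had 133 and 125 CPM in clone 12, 35.8 and 37.5 CPM in clone 16 and 53.0 and 48.8 CPM in Empty_vector between them. The clone difference was -1.78 (standard error 0.0733, adjusted p = 2.0e-10), and clone 12, the clone with more Lncenc1, was the one above the control. In E1KD_SCR it had 61.2 and 63.5 CPM and in E1KD_Platr18KD 27.8 and 30.2 CPM, a fall of 1.08 on the log2 scale (adjusted p = 1.2e-07).

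Csf2, which acts on granulocytes and macrophages, was low or near 0 except in 2 settings. It had 0.106 and 0.0377 CPM in untreated NMuMG, 1.72 and 1.83 CPM in TGFb and 0.0591 to 0.255 CPM in E1KD, M1P and L1P. The log2 fold change after TGFβ was 1.37 (adjusted p = 6.7e-09), and the NMuMG values are worth only 6 and 2 reads. The clones had 1.96 and 2.56 CPM (clone 12) and 0.845 and 0.824 CPM (clone 16), above the 0.274 and 0.391 CPM of Empty_vector, and all 4 libraries with the Pcbp1 shRNA in this kind had 0.0677 CPM or less. The clone mean lay 0.87 above the control (adjusted p = 1.3e-06), under the fold limit with a pseudocount of 1 CPM, and was called with a pseudocount of 0.1, at 1.79. Il34, the other ligand of the Csf1 receptor, had 0.394 to 3.16 CPM and was not called. The receptor Csf1r rose by 1.35 after TGFβ (adjusted p = 1.8e-07) and was 1.04 lower in M1P than in E1KD.

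The monocyte attractants Ccl2 and Ccl7 were both called higher after TGFβ and with hnRNP E1 silencing in the first kind of library. Ccl2 had 27.9 and 27.4 CPM in untreated NMuMG, 188 and 182 CPM in TGFb and 157 and 99.0 CPM in E1KD. The groups did not overlap, but the E1KD libraries lay far apart, and the difference of 2.13 (standard error 0.160, adjusted p = 5.2e-08) was 1.80 without E1KD replicate 1 and 2.47 without replicate 2. M1P had 92.6 and 91.6 CPM and L1P 46.4 and 47.5 CPM, a difference of -0.96 (adjusted p = 0.000755) that fell short of the fold limit. In the other kind of library clone 16 stood out with 153 and 155 CPM, against 49.0 to 55.2 CPM in clone 12 and Empty_vector. The clone difference was 1.48 (standard error 0.160, adjusted p = 4.9e-06). E1KD_SCR had 75.8 and 77.7 CPM and E1KD_Platr18KD 82.8 and 112 CPM (log2 fold change 0.33, adjusted p = 0.188). The difference of E1KD_SCR from Empty_vector was 0.58 (adjusted p = 0.00937) and was not called.

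Ccl7 was close to the detection limit in NMuMG, at 0.0708 and 0.113 CPM. It reached 22.6 and 23.2 CPM after TGFβ (log2 fold change 4.45, standard error 0.101, adjusted p = 8.2e-14) and 2.76 and 2.40 CPM in E1KD (log2 fold change 1.71, adjusted p = 3.5e-09). In M1P and L1P it stayed between 2.83 and 3.33 CPM. Empty_vector had 0.205 and 0.217 CPM, the clones 0.679 to 0.844 CPM, E1KD_SCR 1.15 and 1.19 CPM and E1KD_Platr18KD 1.20 and 1.87 CPM. None of these differences was called with a pseudocount of 1 CPM, and with 0.1 those of the clone mean (1.45) and of E1KD_SCR (2.03) against Empty_vector were.

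Ccl9, a ligand of the receptor Ccr1 on myeloid cells, was lower after Platr18 silencing. It had 3.59 and 3.02 CPM in E1KD_SCR and 0.204 and 0.129 CPM in E1KD_Platr18KD, 19.8 times less by mean CPM (log2 fold change -1.88, standard error 0.0982, adjusted p = 8.3e-09). Empty_vector had 1.05 and 0.985 CPM, clone 12 0.906 and 1.20 CPM and clone 16 2.56 and 3.03 CPM, so the silenced libraries were below all others of their kind. E1KD_SCR was above Empty_vector by 1.09 (adjusted p = 5.6e-07), or 0.99 and not called without E1KD_SCR replicate 1. In the first kind of library Ccl9 had 0.885 and 0.849 CPM in untreated NMuMG, 4.24 and 3.91 CPM in TGFb and 8.03 and 7.10 CPM in E1KD. Here E1KD was the highest group (log2 fold change against NMuMG 2.20, adjusted p = 1.5e-10), followed by M1P with 6.07 and 5.55 CPM, TGFb (1.44 against NMuMG, adjusted p = 1.2e-08) and L1P with 2.85 and 3.22 CPM.

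Ccl20, the ligand of Ccr6 on lymphocytes and dendritic cells, moved the other way. It had 15.1 and 15.0 CPM in E1KD_SCR and 62.6 and 75.0 CPM in E1KD_Platr18KD, the highest of their kind (log2 fold change 2.12, standard error 0.120, adjusted p = 1.9e-08). Empty_vector had 32.1 and 34.8 CPM, clone 12 35.0 and 33.8 CPM and clone 16 21.5 and 22.6 CPM. E1KD_SCR was below Empty_vector by 1.10 (adjusted p = 3.8e-06). In the first kind all libraries had 1.98 to 4.45 CPM, and no comparison there called Ccl20.

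Of the CXC chemokines that act on Cxcr2, Cxcl1 and Ppbp rose with hnRNP E1 silencing in both kinds of library, and Cxcl5 was called in neither. Cxcl1 had 13.4 and 12.8 CPM in untreated NMuMG, 8.56 and 9.26 CPM in TGFb and 36.3 and 26.8 CPM in E1KD. Its log2 fold change in E1KD was 1.19 (standard error 0.112, adjusted p = 5.9e-07), which fell to 0.97 without E1KD replicate 1 and after median-of-ratios rescaling and was then not called. E1KD was above TGFb by 1.70 (adjusted p = 5.7e-09), a call that neither of these ended. M1P had 16.9 and 15.3 CPM and L1P 40.2 and 39.0 CPM, a rise of 1.25 from the primary tumor line to the metastasis line (adjusted p = 2.5e-06). In the other kind it had 17.4 and 18.3 CPM in Empty_vector, 28.6 to 30.5 CPM in the clones, 50.7 and 50.1 CPM in E1KD_SCR and 85.4 and 100 CPM in E1KD_Platr18KD. The difference of E1KD_SCR from Empty_vector was 1.45 (adjusted p = 1.1e-07).

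Ppbp, the precursor of the platelet chemokine Cxcl7, had 2.57 and 2.53 CPM in untreated NMuMG, 2.49 and 2.32 CPM in TGFb and 9.37 and 6.73 CPM in E1KD. It rose by 1.34 with hnRNP E1 silencing (standard error 0.106, adjusted p = 9.5e-08) and was not called after TGFβ. M1P had 3.67 and 3.72 CPM and L1P 2.90 and 2.87 CPM. Both Platr18 clones were above Empty_vector, with 7.35 and 7.42 CPM in clone 12 and 5.38 and 5.91 CPM in clone 16 against 1.62 and 1.71 CPM (log2 fold change of the mean 1.49, standard error 0.0918, adjusted p = 3.3e-08). E1KD_SCR had 5.29 and 5.81 CPM and E1KD_Platr18KD 1.80 and 1.88 CPM, a fall of 1.21 on the log2 scale (adjusted p = 1.8e-06). Of the 22 tested genes, Ppbp and Il11 were called higher in the clones and lower after Platr18 silencing, 2 comparisons that share no libraries. Over all genes 0.427% were called higher in the clones and 0.994% lower after silencing, and the share called in both was not computed. The fall of Il11 was not called with rescaling to equal sums (-0.93).

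Cxcl5 was called only in the comparisons that involve TGFβ. It had 134 and 127 CPM in untreated NMuMG, 30.3 and 31.3 CPM in TGFb and 175 and 135 CPM in E1KD, so it fell by 2.05 on the log2 scale after TGFβ (standard error 0.104, adjusted p = 4.8e-10) and was 2.28 higher in E1KD than in TGFb (adjusted p = 1.0e-10). M1P had 116 and 107 CPM and L1P 206 and 217 CPM (log2 fold change 0.92, adjusted p = 2.3e-05, under the fold limit). All 6 libraries of Empty_vector and the clones had 190 to 197 CPM, E1KD_SCR 245 and 236 CPM and E1KD_Platr18KD 385 and 465 CPM. Cxcl15, a chemokine of lung epithelium, was at most 0.621 CPM in all libraries but those of E1KD_SCR, with 2.80 and 1.83 CPM, and E1KD_Platr18KD, with 3.05 and 4.13 CPM. E1KD_SCR was above Empty_vector by 1.31 (adjusted p = 1.4e-06). The receptor Cxcr2 was at most 0.491 CPM in any library.

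Cxcl17, a chemokine of mucosal epithelium, rose with hnRNP E1 silencing in both kinds of library. It had 0.832 and 0.792 CPM in untreated NMuMG and 15.0 and 9.50 CPM in E1KD (log2 fold change 2.84, standard error 0.141, adjusted p = 5.2e-10), and 1.01 and 0.753 CPM in Empty_vector and 12.8 and 12.3 CPM in E1KD_SCR (log2 fold change 2.85, adjusted p = 7.4e-10). With 1 library left out these fold changes were 2.53 to 3.15 in E1KD and 2.75 to 2.95 in E1KD_SCR. TGFb had 0.184 and 0.333 CPM, below NMuMG, and E1KD was above TGFb by 3.37 (adjusted p = 4.2e-11). The clones, with 0.107 to 0.237 CPM, were also below their control. M1P had 5.06 and 4.82 CPM and L1P 5.08 and 5.55 CPM. The fall from E1KD to M1P was 1.13 on the log2 scale (adjusted p = 2.6e-05), but it was -0.82 without E1KD replicate 1 and -0.92 and -0.98 after the rescalings, none of which was called. E1KD_Platr18KD had 8.09 and 8.55 CPM, and its difference from E1KD_SCR was not called. An antisense gene, RP23-457F4.2, overlaps Cxcl17, and reads of both strands cannot be told apart if the counting ignored strand. It had 1.87 and 0.951 CPM in E1KD and 1.70 CPM in both NMuMG libraries. Clone 12 had 6.03 and 5.23 CPM of it and Empty_vector 3.52 and 2.87 CPM.

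**Figure D3:**
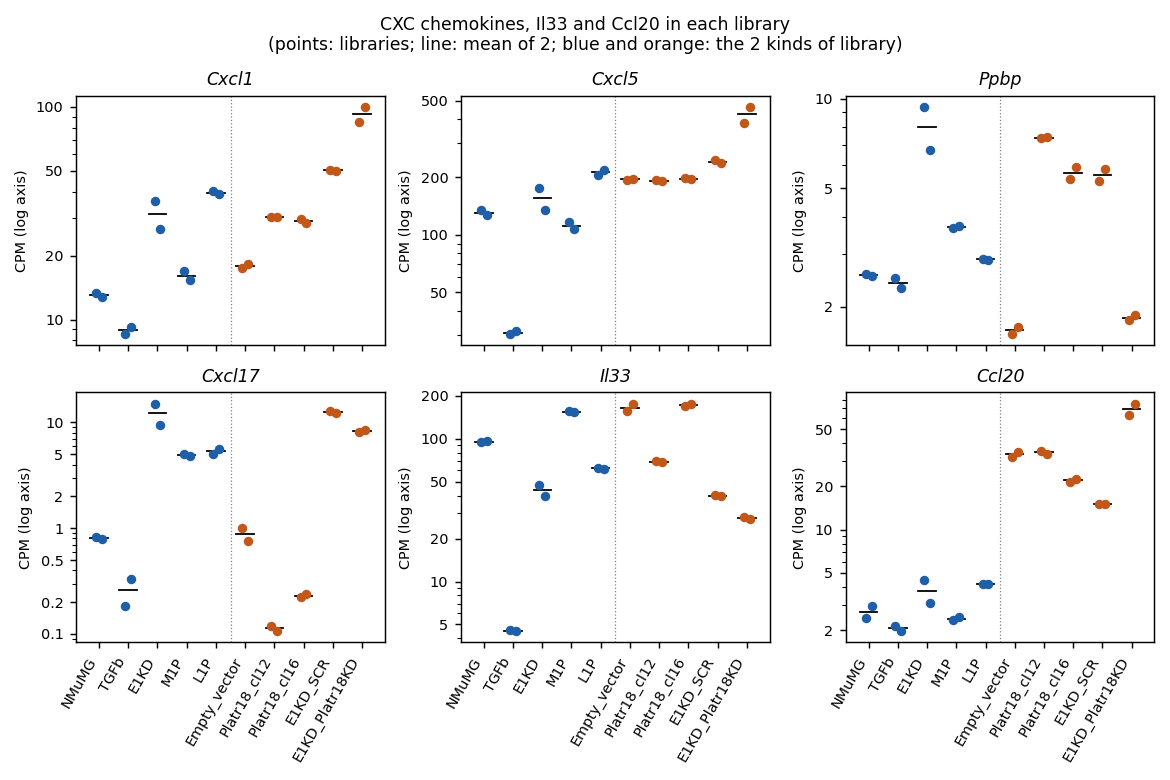
CPM on a log axis for Cxcl1, Cxcl5, Ppbp, Cxcl17, Il33 and Ccl20 in each of the 20 libraries, with the mean of each pair as a line and a dotted line between the 2 kinds of library. Within each kind Cxcl17 is higher in the groups with the Pcbp1 shRNA, between 4.82 and 15.0 CPM, than in the others, at most 1.01 CPM, and in the first kind Cxcl5 and Il33 are lowest in TGFb.

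The membrane-bound chemokine Cx3cl1 fell after TGFβ and with hnRNP E1 silencing in the first kind of library. It had 16.9 and 17.9 CPM in untreated NMuMG, 5.89 and 6.50 CPM in TGFb and 7.44 and 7.06 CPM in E1KD, with log2 fold changes of -1.36 (standard error 0.106, adjusted p = 5.3e-08) and -1.16 (adjusted p = 4.3e-07). M1P and L1P had 4.91 to 6.73 CPM. In the other kind every library had 2.95 to 5.29 CPM, Empty_vector included at 5.29 and 4.11 CPM, and no comparison called it.

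Il33, an alarmin of the interleukin 1 family held in the nucleus and released from damaged cells, was called in more comparisons than any other gene here. It had 95.2 and 95.8 CPM in untreated NMuMG, 4.56 and 4.51 CPM in TGFb and 47.5 and 40.0 CPM in E1KD. TGFβ lowered it 21.1 times by mean CPM (log2 fold change -4.12, standard error 0.0745, adjusted p = 1.1e-14), and hnRNP E1 silencing 2.18 times (log2 fold change -1.11, adjusted p = 1.5e-08, or -0.99 and not called without E1KD replicate 2). The primary tumor line had 156 and 153 CPM, above E1KD by 1.80 (adjusted p = 1.8e-10) and above NMuMG, and L1P had 62.9 and 61.5 CPM, a fall of 1.30 from M1P (adjusted p = 2.8e-08). Its level thus went down, up and down again along the tumor series, each time by more than the spread between libraries. In the other kind it had 156 and 175 CPM in Empty_vector, 69.6 and 68.4 CPM in clone 12, 171 and 176 CPM in clone 16, 40.1 and 40.0 CPM in E1KD_SCR and 28.4 and 27.4 CPM in E1KD_Platr18KD. E1KD_SCR was 4.13 times below Empty_vector (log2 fold change -2.02, adjusted p = 2.6e-11), and clone 12 was below clone 16 by 1.32 (adjusted p = 6.1e-09).

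The receptor of Il33, Il1rl1, rose by 2.00 after TGFβ (adjusted p = 3.6e-11), the condition in which its ligand was lowest. Il1rn, the secreted antagonist of the interleukin 1 receptor, had 0.726 and 0.339 CPM in untreated NMuMG, 2.80 and 2.58 CPM in TGFb and 6.77 and 4.90 CPM in E1KD. The log2 fold changes were 1.28 (standard error 0.126, adjusted p = 6.9e-07) and 2.15 (adjusted p = 3.3e-09). M1P had 2.93 and 2.89 CPM and L1P 4.24 and 3.81 CPM. As with Csf1, the clones went apart, with 6.21 and 5.35 CPM in clone 12, 1.16 and 1.08 CPM in clone 16 and 0.931 and 0.912 CPM in Empty_vector (clone difference -1.68, adjusted p = 1.2e-07). E1KD_SCR had 2.76 and 2.67 CPM and E1KD_Platr18KD 1.21 and 1.30 CPM, which was not called. The agonists that Il1rn opposes were scarce, with at most 0.380 CPM of Il1a and 0.0354 CPM of Il1b.

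The clones share a vector and an overexpressed gene but differed more than their libraries did. Csf1, Il1rn and Csf2 were higher in clone 12, and Ccl2, Il33 and Ccl9 in clone 16, of which Csf2 (-0.82) and Ccl9 did not reach the fold limit. Against Empty_vector, Ccl2 was called only in clone 16 (1.58, standard error 0.160, adjusted p = 6.4e-06), and Csf1 (1.32), Il1rn (1.82) and Il33 (-1.25) only in clone 12, and for these 4 the clone difference itself was called. Lif (1.38) and Csf2 (1.29) were also called only in clone 12, with 0.94 and 0.46 in clone 16, but their clone differences were not called. Il11 and Ppbp were called in both. Since each clone is 1 line, the amount of Platr18 and the clone cannot be told apart.

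**Figure D4:**
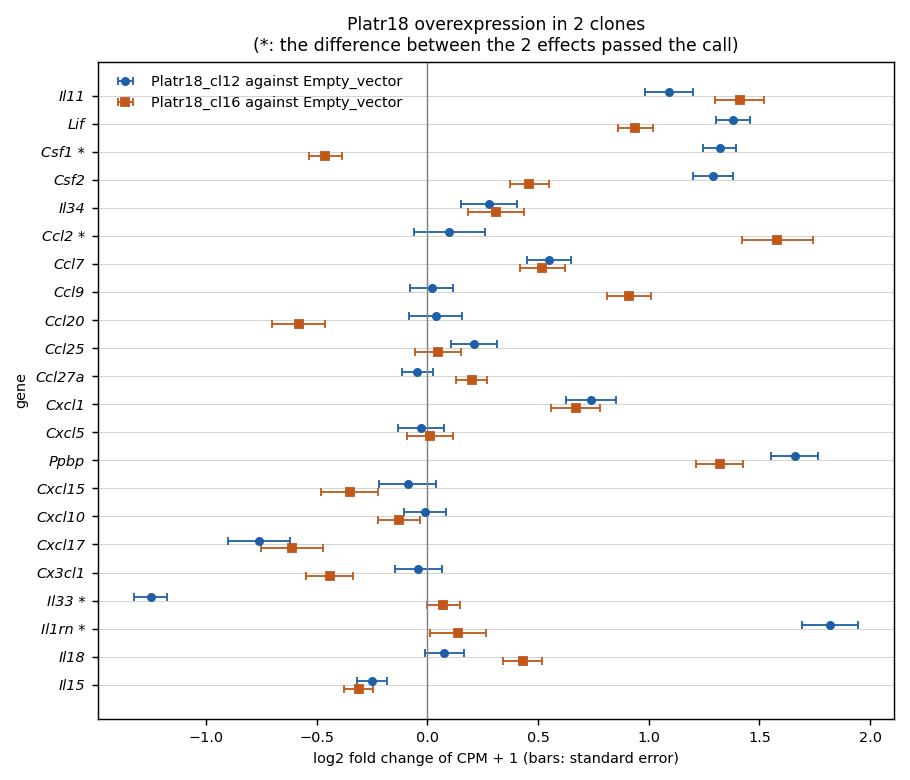
Log2 fold change of CPM + 1 against Empty_vector for the 22 tested genes in clone 12 (blue circles) and clone 16 (orange squares), with standard errors. Stars mark Csf1, Ccl2, Il33 and Il1rn, whose clone difference was called, and Il11, Lif and Ppbp lie right of 0 in both clones.

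The effect of hnRNP E1 silencing was measured once in each kind of library. The signed log2 fold change was higher in E1KD against NMuMG than in E1KD_SCR against Empty_vector for Il11, by 2.00 (standard error 0.154, adjusted p = 4.0e-07). The same held for Ccl2 (1.56), Ccl20 (1.47), Il1rn (1.20), Ccl9 (1.11) and Csf1 (1.03). It was lower for Cx3cl1 (-1.18) and Cxcl15 (-1.02). For Ccl20 the signed values were 0.36 in E1KD and -1.10 in E1KD_SCR, and for Cx3cl1 they were -1.16 and 0.021. For Il11 the E1KD_SCR difference was 0.88 (adjusted p = 1.4e-05), 6.88 times by mean CPM. Cxcl17, Cxcl1, Ppbp and Ccl9 were called higher and Il33 lower in both. Over all genes 9.44% were called in E1KD and 5.98% in E1KD_SCR, and the share called in the same direction in both was not computed. The kind of library, the vector and the second shRNA change together between these settings and cannot be told apart.

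**Figure D5:**
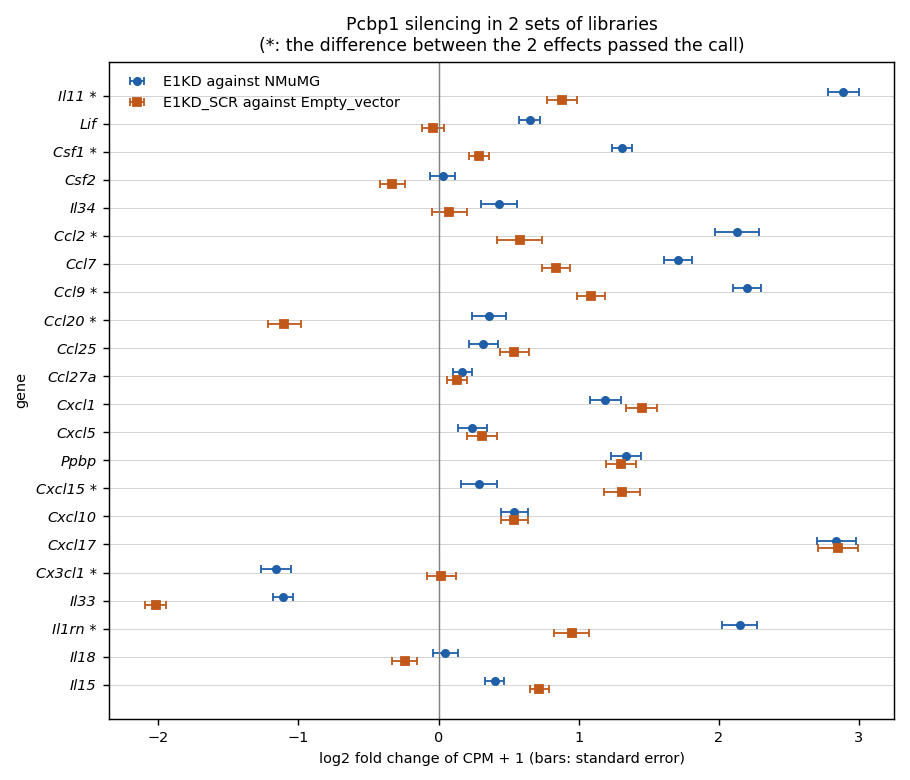
Log2 fold change of CPM + 1 with hnRNP E1 silencing for the 22 tested genes in E1KD against NMuMG (blue circles) and E1KD_SCR against Empty_vector (orange squares), with standard errors. Stars mark the 8 genes whose difference was called, and Cxcl17 gave 2.84 and 2.85 (2.53 to 3.15 and 2.75 to 2.95 with 1 library left out).

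Genes of the pathways around these ligands were read from lists in the same way. Of 44 receptor genes 14 were tested. In E1KD 4 rose and none fell: Lifr, Tnfrsf1b, a TNF receptor (1.68, adjusted p = 8.6e-10), Il2rg, the common gamma chain (1.37), and Crlf2, the Tslp receptor (1.12). Over all genes 6.44% were called higher in E1KD. Crlf2 had 3.76 CPM in E1KD replicate 1 and 2.38 CPM in replicate 2, against 0.779 and 0.905 CPM in NMuMG. After TGFβ 3 rose: Tnfrsf1b (2.37, adjusted p = 1.4e-11), Il1rl1 and Csf1r, and 5.85% of all genes were called higher. In M1P against E1KD 3 fell, Lifr, Il1r1 (-1.68, adjusted p = 5.3e-09) and Csf1r, while 2.43% of all genes were called lower. In L1P against M1P 1 rose, Il15ra (1.10), while 0.742% of all genes did. None of the 14 was called in the mean of the Platr18 clones against Empty_vector, beside 1.46% of all genes.

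Of 19 genes of the NF-kB pathway 18 were tested. In E1KD 4 rose and 1 fell, led by the inhibitor Nfkbia (1.49, standard error 0.140, adjusted p = 5.9e-07), and after TGFβ 2 rose and 1 fell, led by Tnfaip3, another inhibitor (2.69, adjusted p = 5.3e-12). These 5 and 3 of the 18 stand beside 9.44% and 13.5% of all genes called. The 4 that rose in E1KD were higher in its replicate 1 than in its replicate 2. Nfkb2 had 33.1 and 12.9 CPM, Tnip1 47.1 and 31.2 CPM, Icam1 5.39 and 3.45 CPM and Nfkbia 21.7 and 14.9 CPM. NMuMG had 8.64 and 8.86, 15.4 and 15.9, 1.40 and 1.40, and 5.93 and 5.60 CPM in the same order. Whether these calls hold without E1KD replicate 1 was not examined. The adhesion gene Vcam1 was lower after TGFβ (-1.19) and in M1P against E1KD (-1.09, adjusted p = 7.4e-06). It was higher after Platr18 silencing (1.66, adjusted p = 2.3e-07), in E1KD against TGFb (1.68), in L1P against M1P (1.13) and in E1KD_SCR against Empty_vector (1.08). The median over the list was 0.29 in E1KD and 0.31 after TGFβ, against 0.17 and -0.077 in all genes. In E1KD_SCR against Empty_vector, the same silencing in the other kind of library, it was 0.0059 against 0.024 in all genes. There 2 genes of the list were called higher, beside 2.91% of all genes. Of 8 processing enzymes 4 were tested: Gsdmd, a pore-forming protein through which interleukin 1 family cytokines leave cells, fell by 1.69 after TGFβ (adjusted p = 7.5e-07), and Casp1 was 1.18 higher in clone 16 than in clone 12. Over all genes 7.66% were called lower after TGFβ and 2.71% higher in clone 16 than in clone 12.

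Among the markers of other cells, Lyz2, a myeloid gene, was 1.73 higher in M1P than in E1KD (adjusted p = 3.2e-10), and the immune markers summed to 6.01 to 6.60 CPM in M1P and 6.69 to 7.14 CPM in L1P against 2.01 to 3.07 CPM in E1KD, with Adgre1 at 0 in all 4 M1P and L1P libraries and Ptprc, the marker of all leukocytes, at most 0.0709 CPM. The part of such cells in the M1P and L1P values was not tested, and in bulk RNA fewer cells of a type and less RNA per cell cannot be told apart. In TGFb, Pdgfrb rose by 3.69 (adjusted p = 4.9e-16) and Krt19 fell by 4.67 (adjusted p = 9.0e-13). They were the only 1 of 2 tested stromal and 1 of 4 tested epithelial markers called there. Dcn, Lum and Thy1 had at most 0.0167 CPM in TGFb. Krt18 had 789 and 972 CPM in TGFb against 924 and 936 CPM in NMuMG, and Cdh1 129 and 137 CPM against 232 and 237 CPM.

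The 6 tested genes that were never called were Ccl25 (3.91 to 7.85 CPM), Ccl27a (0.585 to 1.30), Cxcl10 (0.0524 to 1.34), Il15 (0.154 to 1.75), Il18 (0.0566 to 1.49) and Il34 (0.394 to 3.16). Their log2 fold changes lay between -0.83, for Il34 in L1P against M1P, and 0.82, for Cxcl10 after TGFβ (adjusted p = 4.0e-06). Cxcl10, an interferon-induced chemokine, was at 0.0524 and 0.124 CPM in M1P against 1.14 and 0.647 CPM in E1KD, and with a pseudocount of 0.1 this was called (-2.38). Il15, which supports natural killer cells, had 1.22 and 1.19 CPM in M1P, and L1P had 1.67 and 1.75 CPM, above the 0.354 and 0.283 CPM of NMuMG. Ccl25 lies opposite Elavl1, which had up to 78.9 CPM, and Ccl27a opposite Il11ra1, so their values are uncertain.

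The 40 genes that were not tested had at most 0.962 CPM in any library, in Ccl28. Of these, 13 entries were at 0 in all 20 libraries, namely Cxcl14, Ccl22, Ccl24, Ccl26 and the copies of Ccl19, Ccl21a, Ccl21b and Ccl21c. A further 9 never exceeded 3 reads: Ccl1, Ccl11, Ccl12, Ccl4, Cxcl12, Cxcl13, Cxcl9, Il1b and Tslp. The remaining 18 exceeded 3 reads somewhere. Their highest values were 0.880 CPM for Ccl6 in clone 16, 0.623 CPM for Ccl8 in E1KD_SCR, 0.531 CPM for Cxcl16 in E1KD, 0.380 CPM for Il1a in E1KD, 0.333 CPM for Il23a in TGFb and 0.272 CPM for Tnf in E1KD_Platr18KD. Csf3, Ccl17, Il6, Cxcl3, Cxcl2, Ccl3, Pf4, Ccl5, Ccl27 with its copies and Ccl27b had at most 0.200 CPM. Interleukin 6 itself was at most 0.184 CPM, in TGFb, where its relative Il11 was highest. Read shares of Ccl19, Ccl21 and Ccl27 are uncertain because near-identical copies exist, and Ccl6 overlaps a noncoding transcript on the other strand that had up to 4.51 CPM.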

How the data were processed

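Bulk RNA of 20 libraries, 2 for each of 10 groups, was analyzed. Per the labels and methods, the authors aligned the reads with Bowtie2 (2.2.5) to GRCm38.p6, assigned them to the M18 annotation in Partek with expectation-maximization, and deposited a single CPM table (counts per 1e6 reads) with 0.0001 added to each value. This was subtracted. Steps between low values gave 50.8 to 147 M reads per library (M, 1e6), but only 90.4% to 97.5% of values up to 30 reads were whole within 0.05, so no count model was used. Read sharing among copies and between strands is not given in the sources used here.

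The 17106 genes that reached 1 CPM in 2 or more libraries were fitted on log2(CPM + 1) with limma 3.58.1 in R 4.3.3 (trend, 10 group means, 10 residual degrees of freedom), and adjusted p-values are Benjamini-Hochberg over all of them. A call required p under 0.001 before adjustment and a change of 1 or more in size on the log2 scale. The fit was tested on simulated data. The members, lists and tests were chosen with earlier results of these data known. Members called at least once are named with the values of their libraries, given for some groups as a range or upper limit. Other tested members are named with their range and untested members with their highest value, alone or as a limit for several. Of the listed genes, those with the largest changes were named, and Il6st, Il11ra1 and Cxcr2 were added after their values were seen. Alternatives were the pseudocount, filter, scaling, libraries in the fit, thresholds, replicate block and each library left out. Tables used Python 3.11.15 with pandas 2.3.3, and figures matplotlib 3.10.9.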

Additional observations from a re-analysis of the deposited data

Results flagged for a closer look

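The effect of hnRNP E1 silencing differed between the kinds of library, by a test of the difference itself in limma, for 8 genes. As the log2 fold change in E1KD against NMuMG minus that in E1KD_SCR against Empty_vector, the values were 2.00 for Il11, 1.56 for Ccl2, 1.47 for Ccl20, 1.20 for Il1rn, 1.11 for Ccl9, 1.03 for Csf1, -1.18 for Cx3cl1 and -1.02 for Cxcl15. For Ccl20 the effects had opposite directions, and of these only the fall in E1KD_SCR was called. The values for Csf1, Ccl9 and Cxcl15 were not called under at least 1 rescaling, with 0.81 and 0.82 for Csf1, 0.93 for Ccl9 and -0.96 for Cxcl15. Leaving out E1KD replicate 1 gave 0.93 for Csf1 and leaving out E1KD_SCR replicate 1 gave -0.80 for Cxcl15, and neither was then called. The Csf1 call was also lost without NMuMG replicate 2, Empty_vector replicate 1 or E1KD_SCR replicate 1, at 0.97 to 1.00, and that of Cxcl15 without E1KD replicate 2 (-0.92) or Empty_vector replicate 1 (-0.96). The kind of library, the vector and the second shRNA cannot be told apart here.

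The Platr18 clones differed in 4 genes, by their direct comparison in the same fit. As clone 16 minus clone 12 on the log2 scale, the values were 1.48 for Ccl2, 1.32 for Il33, -1.78 for Csf1 and -1.68 for Il1rn. Lncenc1 had 3092 and 3096 CPM in clone 12 and 813 and 820 CPM in clone 16, and the amount of Platr18 and the clone cannot be told apart.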

How the results depend on the processing

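Of 62 called pairs of a gene and a comparison, 47 were called in every refit and 15 were lost in at least 1. None was reversed in any refit, and 31 pairs were called only in a refit. Refits are the alternatives other than the changed thresholds, which these counts of pairs leave out. The causes were not tested. The number of called genes went to 17 in E1KD against NMuMG, 17 in E1KD against TGFb, 15 in M1P against E1KD, 12 in L1P against M1P, 14 in the clones against Empty_vector, 13 between the clones, 14 in E1KD_Platr18KD against E1KD_SCR and 18 in E1KD_SCR against Empty_vector with an adjusted p under 0.05 and no fold limit. Under this setting 56.6%, 71.5%, 49.1%, 18.5%, 28.8%, 42.5%, 19.5% and 42.6% of all genes were called in the same order. With a pseudocount of 0.1 it was 5 in M1P against E1KD, 4 in L1P against M1P, 7 in the clones against Empty_vector, 7 between the clones and 13 in E1KD_SCR against Empty_vector, beside 6.61%, 2.72%, 3.60%, 7.96% and 9.98% of all genes. When the fit held the compared groups alone it was 5 in E1KD against NMuMG, 5 higher and 0 lower, and 1 in M1P against E1KD, where either rescaling also gave 1. Over all genes these fits called 4.43% and 1.60%. Leaving out 1 library gave 1 (without E1KD replicate 1) to 4 (without E1KD replicate 2) in M1P against E1KD, beside 3.32% and 11.8% of all genes. The depth limits values near 3 reads, worth 0.0204 to 0.0591 CPM, and by its construction the pseudocount of 1 CPM makes the fold changes of genes near or below 1 CPM smaller.

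The shifts of same-numbered libraries from their group means had correlations from -0.395, for E1KD with TGFb, to 0.287, for the 2 clones. The sign differed between the pairs of groups, so the numbers were not taken to pair the libraries. With the replicate block the counts were as reported in all 10 comparisons, 11, 11, 9, 2, 2, 3, 4, 5, 7 and 8. An alternative added after seeing the data, which crossed the numbers of E1KD against TGFb and of clone 16, called 9 and 3.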
